A study of Mus musculus with 6 samples.

Results

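The guide strands of the miR-15/16 family are 6 mature microRNAs (miRNAs): mmu-miR-16-5p, mmu-miR-15a-5p, mmu-miR-15b-5p, mmu-miR-195a-5p, mmu-miR-497a-5p and mmu-miR-322-5p (written below without the mouse prefix). They were taken by name, for their common seed, from a table of 756 mature miRNAs, and each was found there and passed the filter on low values. The table came from small RNA sequencing of the dorsal striatum, an input region of the basal ganglia with a role in habits and movement, in C57BL/6N mice aged 7 weeks. The saline group (n = 3 libraries) received saline injections. The withdrawal group (n = 3) received nicotine at 0.5 mg/kg once daily for 3 days and then the nicotinic receptor antagonist mecamylamine at 3.0 mg/kg, 24 hours after the last nicotine dose, to precipitate withdrawal. Both groups were killed 1 week after their last injection. The drugs cannot be told apart in this design, since no group received either alone. Each library was taken as 1 mouse. Where that does not hold, the SDs and p-values measure only the spread between libraries.

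miRNAs guide Argonaute proteins to messenger RNAs, mainly by pairing of bases 2 to 8 of the miRNA, the seed. miRNAs with a common seed can repress overlapping sets of targets, and the miR-15/16 family is known for repressing cell cycle genes such as those of D-type cyclins and the survival gene Bcl2. Each precursor hairpin yields a 5p and a 3p strand. In this family the 5p strand is the main guide, and the 3p strand is mostly degraded.

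The family is shown here by sequence because its members differ outside the seed and are made from separate loci. The mature sequences below were matched by name for 6 of 6 members and are from RefSeq (GRCm38.p6). They are written 5′ to 3′ with the seed in capitals.
miR-16-5p: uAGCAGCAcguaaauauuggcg
miR-195a-5p: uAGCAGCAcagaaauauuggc
miR-15a-5p: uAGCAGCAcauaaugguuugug
miR-15b-5p: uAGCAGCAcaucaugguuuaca
miR-497a-5p: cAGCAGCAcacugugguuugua
miR-322-5p: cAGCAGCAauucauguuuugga

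All 6 members carried the seed AGCAGCA, so the sequences bore out the label of a single seed family. Of 1679 mature miRNA names in the RefSeq table, 10 had this seed, and 6 of the 10 were in the deposited table. These 6 were the members. Only 654 of the 756 deposited names were matched to RefSeq, so the seed of the rest was not checked. The first base was U in 4 members and C in 2, miR-497a-5p and miR-322-5p. Aligned from the 5′ end without gaps, miR-16-5p and miR-195a-5p were the closest pair, with 19 of 21 bases identical. They differed by G10A and U11G (the miR-16-5p base, the position from the 5′ end, the miR-195a-5p base). The next pair was miR-15a-5p and miR-15b-5p, with 18 of 22 bases identical. The most distant pairs shared 11 bases, namely miR-16-5p with miR-497a-5p and miR-195a-5p with miR-322-5p. How reads with mismatches were assigned is not given in the sources used here. This matters most for miR-195a-5p, whose neighbour in sequence, miR-16-5p, had between 65.2 and 70.5 times its normalized reads in each library.

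The members come from 4 loci, given here on GRCm38 from the GENCODE M21 annotation, while the submitters' processing notes name mm9. Mir15a (chr14:61632027-61632110, minus strand) and Mir16-1 (chr14:61631880-61631972, minus strand) lie 54 bases apart within Dleu2, the long noncoding RNA host known from deletions in human chronic lymphocytic leukaemia. Mir15a is intronic, and Mir16-1 overlaps an exon of at least 1 Dleu2 transcript. Mir15b (chr3:69009772-69009835, plus strand) and Mir16-2 (chr3:69009902-69009996, plus strand) lie 66 bases apart in an intron of Smc4, which encodes a condensin subunit. Mir497 (chr11:70234717-70234800) and Mir195a (chr11:70235042-70235135) lie 241 bases apart on the plus strand, with no annotated host gene on that strand. Mir322 (chrX:53054255-53054349, minus strand), the mouse counterpart of human miR-424, lies 200 bases from Mir503 at the head of a cluster with Mir351, Mir542 and the Mir450 genes.

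miR-16-5p is made from both the chromosome 14 and the chromosome 3 locus, and its reads cannot be assigned to either. The hairpins of its 2 genes, from RefSeq (GRCm38.p6), show why. Both arms are in capitals, and the 5p arm is the same in the pair while the 3p arm is not.
Mir16-1: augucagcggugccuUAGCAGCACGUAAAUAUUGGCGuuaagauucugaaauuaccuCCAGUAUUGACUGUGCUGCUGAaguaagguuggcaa
Mir16-2: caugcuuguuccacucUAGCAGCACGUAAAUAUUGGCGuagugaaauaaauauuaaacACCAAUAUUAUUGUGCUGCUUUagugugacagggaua

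Values below are normalized reads, taken to be read counts that the authors divided by a size factor of each library. Within a library all values were whole multiples of a step, and if a step is 1 read, the libraries held from 40111870 to 53262896 reads. On that reading each value of miR-15b-5p, the least abundant member, rested on at least 1150 reads, with a counting error of at most 2.95%. This covers counting only, as PCR copies could not be removed. The spread between libraries of a group, as a coefficient of variation, was 6.22% for miR-15b-5p in saline and 2.09% for miR-16-5p, against a counting error of at most 0.187% for the latter.

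miR-16-5p dominated the family in both groups. The 6 members together held 350303, 346930 and 337376 normalized reads in saline libraries 1, 2 and 3, and 317216, 315677 and 301563 in withdrawal libraries 1, 2 and 3. That was from 0.740% to 0.773% of all normalized reads in saline and from 0.679% to 0.716% in withdrawal, without overlap. The log2 difference of the family sum was -0.15 ± 0.03 (SE from the group SDs). Without miR-16-5p the sum of the other 5 differed by -0.15 ± 0.02. As deposited, the family sum was therefore lower by about the same log2 amount with and without its dominant member. With quantile normalization, an alternative added for the sum after seeing the data, the difference was -0.049.

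Of the family's reads, miR-16-5p took 92.2 ± 0.140% in saline and 92.2 ± 0.0494% in withdrawal (mean ± SD, n = 3 each). miR-15a-5p followed with 4.56 ± 0.128% and 4.59 ± 0.0478%, and miR-195a-5p with 1.34 ± 0.0394% and 1.41 ± 0.00401%. The smaller shares were those of miR-322-5p, with 0.914 ± 0.0157% and 0.877 ± 0.0390%, of miR-497a-5p, with 0.605 ± 0.0274% and 0.515 ± 0.0385%, and of miR-15b-5p, with 0.366 ± 0.0164% and 0.391 ± 0.0164%. By locus, 1.94 ± 0.0497% in saline and 1.93 ± 0.0419% in withdrawal came from Mir497/Mir195a. The reads of miR-16-5p could come from either of 2 loci, so the shares of chromosomes 14 and 3 remain unresolved.

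The order of the members by level was the same in all 6 libraries. Each member was set against the next in that order by the log2 difference of their normalized reads within a library, given as a description over the 6 libraries. The mean log2 differences ± SD were 4.33 ± 0.03 for miR-16-5p over miR-15a-5p, 1.74 ± 0.04 for miR-15a-5p over miR-195a-5p and 0.62 ± 0.10 for miR-195a-5p over miR-322-5p. They were 0.68 ± 0.15 for miR-322-5p over miR-497a-5p and 0.56 ± 0.22 for miR-497a-5p over miR-15b-5p. The members are 21 or 22 bases long. The last gap was the least steady, from 0.23 to 0.80 over the libraries, and its group means were 0.73 in saline and 0.39 in withdrawal.

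**Figure D1:**
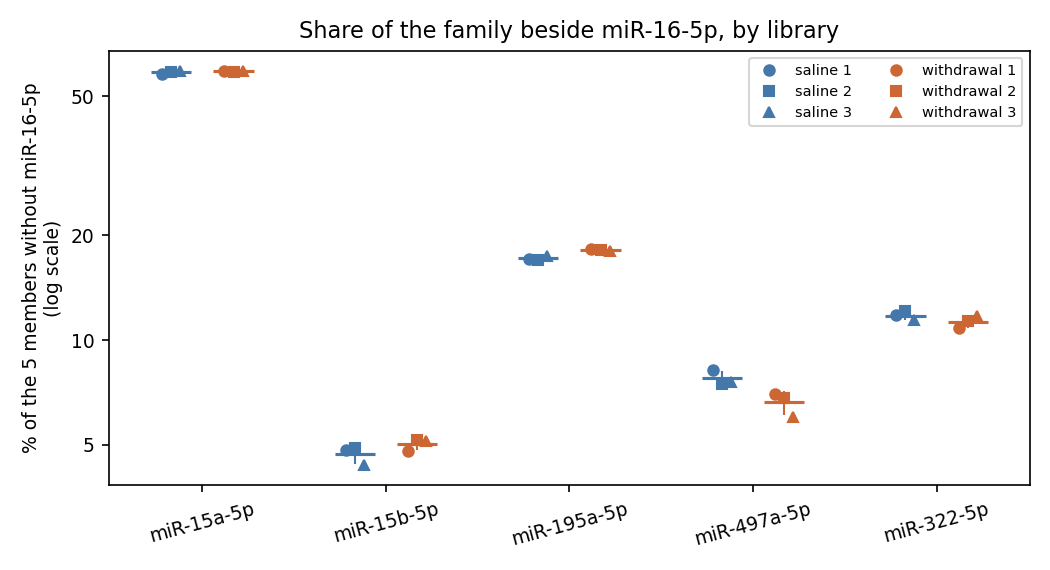
Share of each member among the 5 members other than miR-16-5p, in percent on a log axis, with a point for each library, the group mean as a bar and the SD as a line. miR-15a-5p holds 58.6% in saline and 58.9% in withdrawal. The share of miR-497a-5p is lower (7.78% and 6.62%) and that of miR-195a-5p higher (17.2% and 18.1%) in every withdrawal library.

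Within the 5 lesser members the composition moved at the Mir497/Mir195a locus. The share of miR-497a-5p among them was 8.23, 7.50 and 7.60% in saline and 7.02, 6.83 and 6.01% in withdrawal. That of miR-195a-5p was 17.1, 16.97 and 17.4% in saline and 18.3, 18.1 and 18.0% in withdrawal. In both the groups did not overlap, and the shares moved in opposite directions. The normalized reads of both members were lower in every withdrawal library than in any saline library. The shares of miR-15a-5p, miR-15b-5p and miR-322-5p overlapped between the groups.

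The members were chosen by name with results of the withdrawal comparison, their normalized reads in both groups, already known, so their changes are described here and support nothing. Changes are log2 fold changes (withdrawal over saline) on the log2(value + 1) scale with the SE of a limma fit over 699 tested miRNAs. In that fit 4 of the 6 members were past a Benjamini-Hochberg adjusted p of 0.05, each lower in withdrawal, where 6.58% of all tested miRNAs were past it and 3.58% were past it and lower. The 4 were miR-16-5p, miR-15a-5p, miR-497a-5p and miR-322-5p. In 5 of the 6 members every withdrawal library lay below every saline library, as in 14.6% of all tested miRNAs. The median log2 fold change was -0.14 over the members and 0.00 over all tested miRNAs. The calls depended on the fit: limma without a trend of variance on level put 0 of the 6 past the threshold, and without saline 2 miR-497a-5p alone passed.

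miR-16-5p, the most abundant member, stood at 323338, 320182 and 310567 normalized reads in saline and at 292671, 291148 and 277936 in withdrawal. All 3 withdrawal libraries were below the lowest saline library, and withdrawal 3 was the lowest. The log2 fold change was -0.15 ± 0.03, and the mean fell by 9.68%. With quantile normalization, which fixes the value of each rank, it was -0.04 ± 0.04. In bulk tissue such as this, fewer cells of a type and less of the miRNA per cell cannot be told apart.

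miR-15a-5p, processed from the same Dleu2 region as one source of miR-16-5p, stood at 15658, 15656 and 15891 normalized reads in saline and at 14495, 14360 and 13993 in withdrawal. The saline libraries lay close together, and all withdrawal libraries were lower. Its log2 fold change of -0.14 ± 0.03 was near that of miR-16-5p. Scaled to equal library totals it was -0.11 ± 0.03.

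miR-15b-5p, from the Smc4 intron, stood at 1302, 1313 and 1172 normalized reads in saline and at 1182, 1266 and 1209 in withdrawal. Saline 3 was the lowest of all 6 libraries, and the groups overlapped. Its log2 fold change was -0.05 ± 0.06, smaller than the error.

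miR-497a-5p, which with miR-195a-5p is known in mouse as a brake on the cell cycle of heart muscle after birth, had the largest difference of the 6. It stood at 2219, 2007 and 2038 normalized reads in saline and at 1723, 1675 and 1421 in withdrawal. Withdrawal 3 was the lowest and lay apart from the other two, and saline 1 was the highest. The log2 fold change was -0.38 ± 0.07, and the mean fell by 23.1%. The log2 fold change ranged from -0.43 to -0.30 over all settings tried.

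miR-195a-5p, encoded 241 bases from miR-497a-5p on the same strand, stood at 4614, 4539 and 4657 normalized reads in saline and at 4489, 4451 and 4244 in withdrawal. The withdrawal libraries were lower without overlap, by a small margin. Its log2 fold change was -0.07 ± 0.04. The ratio of miR-195a-5p to miR-497a-5p was 2.08, 2.26 and 2.29 in saline and 2.61, 2.66 and 2.99 in withdrawal, and so higher in each withdrawal library. The log2 difference of this ratio was 0.31 ± 0.08 (SE from the group SDs). These neighbours were thus not lower by the same amount.

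miR-322-5p, known for promoting muscle differentiation, stood at 3172, 3234 and 3051 normalized reads in saline and at 2656, 2777 and 2760 in withdrawal. Here withdrawal 1 was the lowest, and the groups were well apart. The log2 fold change was -0.21 ± 0.04, and the mean fell by 13.4%. The 2 members with C as first base, miR-497a-5p and miR-322-5p, were those with the largest differences. The 4 members with U lay between -0.15 and -0.05. This split by first base was not tested.

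**Figure D2:**
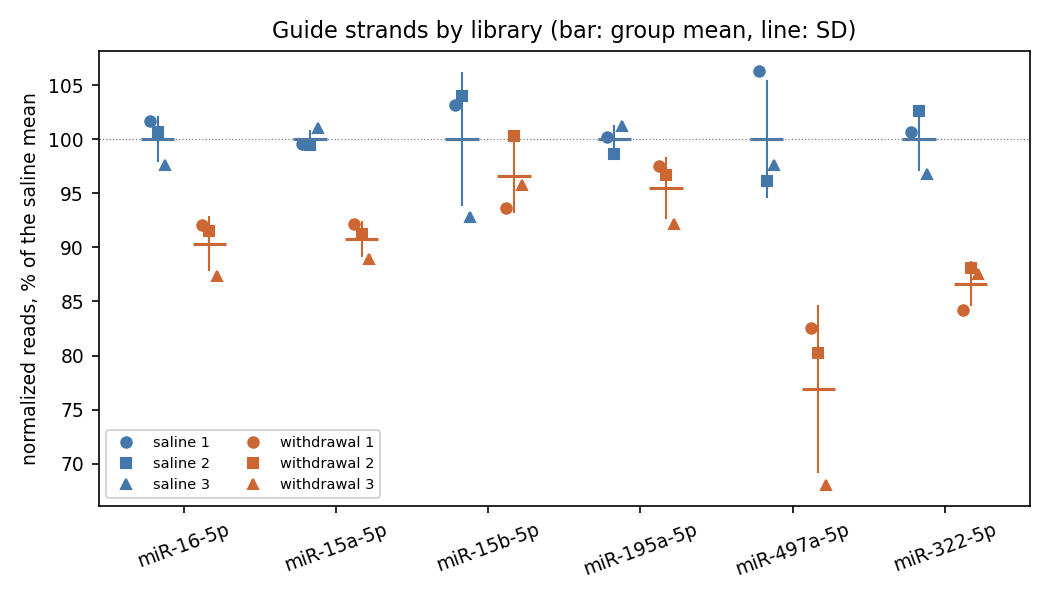
Normalized reads of each guide strand as a percentage of its saline mean, with a point for each of 6 libraries, the group mean as a bar and the SD as a line. All withdrawal points lie below the saline points except for miR-15b-5p, and miR-497a-5p is lowest, with means of 2088 normalized reads in saline and 1606 in withdrawal.

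The other arms of the same precursors and the other miRNAs of the same loci were not used to choose the members, but they come from the same libraries. A list of 23 such names (3p arms, the Mir322 cluster and miRNAs of like seed) had 16 in the deposited table, of which 15 passed the filter on low values. None of the 15 passed in limma with Benjamini-Hochberg adjustment over all 699 miRNAs, where 6.58% of all tested miRNAs passed. Of the 15, miR-16-1-3p had an unadjusted limma p of 0.00460, where 160 of all tested miRNAs had one under 0.05. The median log2 fold change of the 15 was 0.00, as over all tested miRNAs.

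At the Mir15a/Mir16-1 locus both 3p arms were higher in withdrawal, neither past the threshold, while miR-15a-5p was lower. miR-16-5p was lower too, but its reads pool both of its loci. miR-16-1-3p, which unlike miR-16-5p belongs to the chromosome 14 locus, stood at 204, 222 and 223 normalized reads in saline and at 258, 269 and 263 in withdrawal. Each withdrawal library was above each saline library, as in 13% of all tested miRNAs. The log2 fold change was 0.28 ± 0.08 (limma, adjusted p = 0.0624). This value did not pass, but it passed when libraries were scaled to equal totals (0.32 ± 0.08, adjusted p = 0.0345) and with the replicate number as a block (adjusted p = 0.0392). Over all settings tried the adjusted p ran from 0.0345 to 0.201.

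miR-15a-3p stood at 69.1, 90.7 and 79.9 normalized reads in saline and at 96.6, 100.1 and 93.4 in withdrawal, again without overlap. Its log2 fold change was 0.28 ± 0.14 (limma, adjusted p = 0.255), and at 61 to 112 estimated reads its counting error reached 12.8%. The ratio of miR-16-1-3p to miR-15a-3p was 2.73 ± 0.255 in saline and 2.72 ± 0.0777 in withdrawal. These 3p arms of a common host therefore kept about the same ratio in both groups.

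The balance between the arms was accordingly different for miR-15a-5p, the guide made at this locus alone. The ratio for miR-16-5p pools both of its loci, since its reads cannot be assigned to either, and so does not describe this locus. The ratio of miR-15a-5p to miR-15a-3p was 227, 173 and 199 in saline and 150.1, 143.5 and 149.8 in withdrawal. miR-16-5p over the sum of its 3p arms was 1386, 1201 and 1165 in saline and 997, 969.9 and 869.8 in withdrawal. Both ratios were lower in every withdrawal library, with log2 differences of -0.42 ± 0.12 and -0.40 ± 0.10 (SE from the group SDs). As they contain the guides that were chosen with this comparison known, they were not tested.

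At the Mir15b/Mir16-2 locus neither 3p arm separated the groups. miR-15b-3p stood at 136 ± 14.4 normalized reads in saline and 143 ± 16.97 in withdrawal (log2 fold change 0.06 ± 0.13). miR-16-2-3p stood at 39.3 ± 8.51 and 41.3 ± 13.6 (0.05 ± 0.26). miR-16-1-3p exceeded miR-16-2-3p in all 6 libraries, by 4.63 to 8.60 times. As arms differ in stability, this ratio does not give the share of miR-16-5p made at each locus.

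At the Mir497/Mir195a locus the 3p arms overlapped between the groups. miR-497a-3p stood at 22.7, 16.9 and 18.96 normalized reads in saline and at 15.9, 10.7 and 19.2 in withdrawal, with a log2 fold change of -0.36 ± 0.33. With 12 to 23 estimated reads it could not show whether this arm followed its guide. miR-195a-3p stood at 215 ± 7.97 in saline and 216 ± 23.5 in withdrawal (0.00 ± 0.10).

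**Figure D3:**
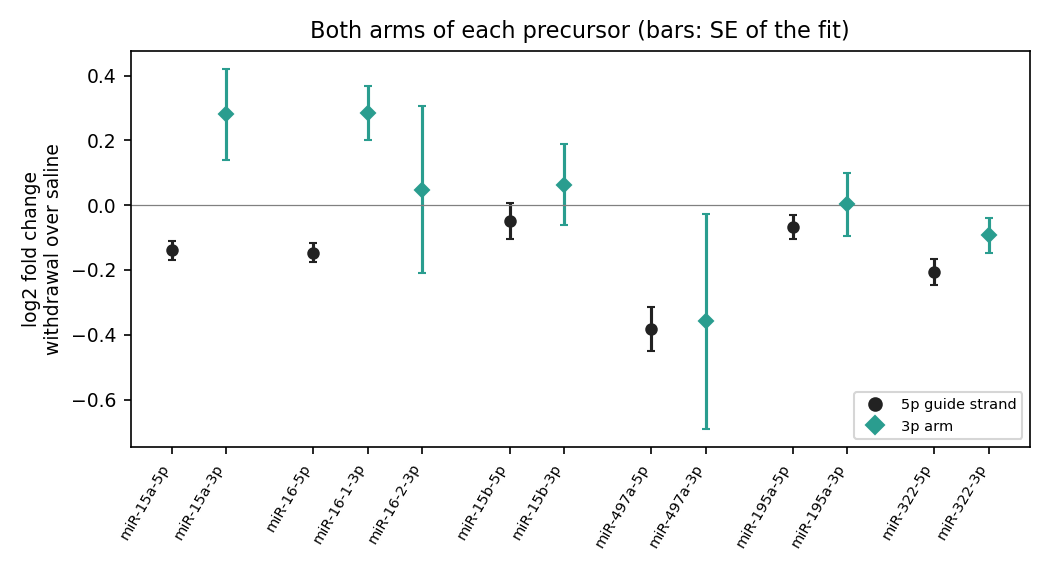
Log2 fold change (withdrawal over saline) of the 5p guide strand (circles) and the 3p arms (diamonds) of each precursor, with the SE of the limma fit as bars. miR-15a-3p and miR-16-1-3p stand at 0.28 each while miR-15a-5p and miR-16-5p stand at -0.14 and -0.15, and the bar of miR-497a-3p is the widest.

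In the Mir322 cluster miR-322-5p was the one strand past the threshold. miR-322-3p stood at 828, 811 and 776 normalized reads in saline and at 746, 757 and 760 in withdrawal, without overlap (log2 fold change -0.09 ± 0.05, limma, adjusted p = 0.320). The ratio of miR-322-5p to miR-322-3p was 3.92 ± 0.0799 in saline and 3.62 ± 0.0549 in withdrawal and was lower in each withdrawal library. miR-351-5p, which has the seed of the miR-125 family, stood at 6833 ± 171 and 6482 ± 314 (-0.08 ± 0.04, limma, adjusted p = 0.268). The remaining tested members, miR-542-3p, miR-542-5p, miR-450a-5p, miR-450b-5p and miR-503-3p, overlapped between the groups, with log2 fold changes from -0.27 to 0.00. miR-503-5p, whose seed AGCAGCG differs from that of the family in its last base, was listed at 0 in saline 3 and withdrawal 1 and at 5.36 to 9.78 elsewhere, and was not tested.

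**Figure D4:**
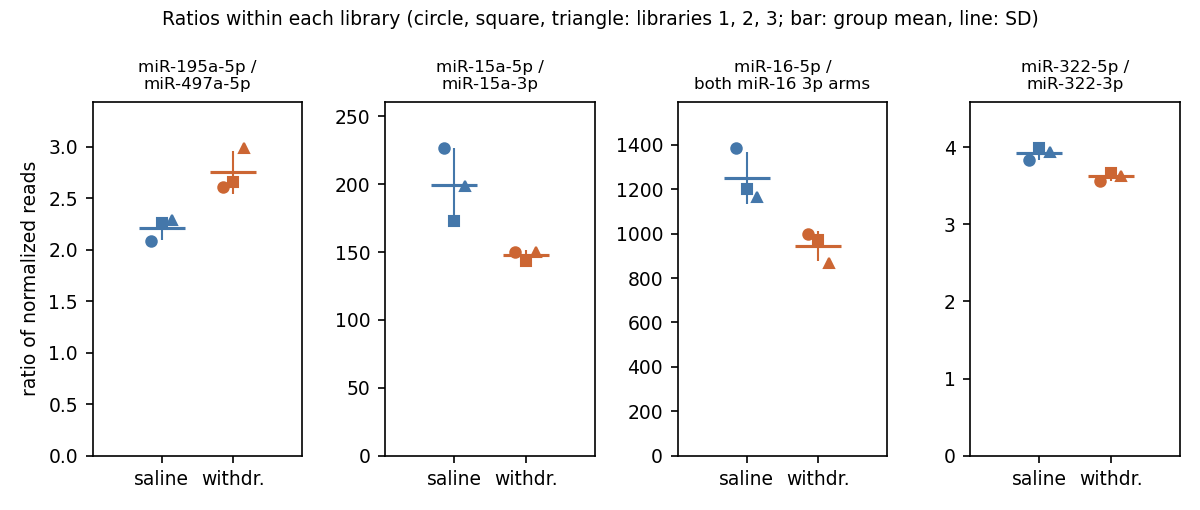
Ratios of normalized reads within each library for a pair of guides from one locus and for guides over their 3p arms, with the group mean as a bar and the SD as a line. miR-195a-5p over miR-497a-5p is higher in withdrawal (2.75 against 2.21), and the 3 guide to 3p ratios shown are lower in every withdrawal library. The same ratio overlapped between the groups for miR-15b-5p (9.35 in saline, 8.62 in withdrawal), miR-195a-5p (21.4 and 20.5) and miR-497a-5p (108 and 113), not shown.

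miR-103-3p and miR-107-3p, regulators of insulin signalling, are relatives in sequence: bases 1 to 7 of each are the seed letters of the family, shifted by 1 base. They are shown with their own bases 2 to 8 in capitals.
miR-103-3p: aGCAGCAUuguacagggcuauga
miR-107-3p: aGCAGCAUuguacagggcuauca

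miR-103-3p, nearly as abundant as miR-16-5p, stood at 259361, 258034 and 252422 normalized reads in saline and at 252756, 265555 and 260846 in withdrawal. The groups overlapped, with a log2 fold change of 0.02 ± 0.03 (limma, adjusted p = 0.774). miR-107-3p stood at 41736 ± 292 and 41868 ± 726 (0.00 ± 0.03, adjusted p = 0.953).

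Several cell types of striatal tissue contain these miRNAs, and miR-16-5p is abundant in blood cells. Of 5 erythrocyte markers 2 rose (miR-486a-5p and miR-486b-5p, nearly identical rows that may hold the same reads), and 3 did not pass. The summed level of the 4 markers other than miR-486b-5p ran from 110515 to 113344 normalized reads in saline and from 123019 to 126250 in withdrawal. miR-486a-5p makes up most of this sum. Both miR-486 rows stood at 0.16 ± 0.03 (limma, adjusted p = 0.00673 each), opposite in direction to the family. miR-451a, an erythroid miRNA, stood at 0.15 ± 0.05 (limma, adjusted p = 0.0688). Its groups overlapped narrowly, with saline up to 11436 normalized reads and withdrawal from 11427. miR-144-3p and miR-144-5p also overlapped, at 0.01 ± 0.06 and 0.07 ± 0.08. Of 2 endothelial markers miR-126a-3p fell (-0.10 ± 0.03, limma, adjusted p = 0.0347), while the more abundant miR-126a-5p stood at -0.07 ± 0.03 (adjusted p = 0.156), and the sum of the 2 ran from 319628 to 324696 in saline and from 303351 to 313594 in withdrawal. Of 5 leukocyte and microglia markers miR-150-5p, a lymphocyte miRNA, fell (-0.13 ± 0.03, adjusted p = 0.0246), with sums from 37604 to 39195 and from 35281 to 35907. miR-150-5p is the most abundant of the 5 and makes up most of this sum. The other 4 did not pass, with miR-142a-5p at -0.06 ± 0.03, miR-142a-3p at 0.01 ± 0.06, miR-223-3p at 0.15 ± 0.12 and miR-155-5p at 0.26 ± 0.20, and the median of the 5 was 0.01.

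Of 2 oligodendrocyte markers miR-338-3p fell (-0.16 ± 0.03, limma, adjusted p = 0.00723), and miR-219a-2-3p overlapped between the groups (-0.03 ± 0.03, adjusted p = 0.693). Their sums ran from 101689 to 107397 in saline and from 94529 to 97098 in withdrawal. miR-338-3p makes up most of this sum. None of 4 smooth muscle and pericyte markers and none of 3 neuronal markers passed. The most abundant of these, miR-143-3p and miR-9-5p, stood at 0.08 ± 0.03 and 0.09 ± 0.03 (limma, adjusted p = 0.141 and 0.156). Both were higher in withdrawal without overlap. Of the other neuronal markers, miR-128-3p was lower in withdrawal without overlap (-0.13 ± 0.04, limma, adjusted p = 0.0543) and miR-124-3p stood at 0.05 ± 0.03. No defining marker was at 0 in any library. The part of cell composition in the lower guide strands was not tested.

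Among tested miRNAs outside the family, likeness of pattern was measured as the root mean square difference of log2 values, each centred over the 6 libraries. The nearest to the family sum were miR-130a-3p (0.03), miR-667-3p (0.03) and miR-377-5p (0.03), where the family sum itself varied by 0.08 about its mean. The nearest to single members were miR-667-3p for miR-16-5p, miR-872-5p for miR-15a-5p, miR-671-5p for miR-15b-5p, miR-3059-5p for miR-195a-5p, miR-877-5p for miR-497a-5p and miR-153-5p for miR-322-5p. The closest of these was miR-872-5p at 0.01, from 8721 normalized reads in saline to 7965 in withdrawal (-0.13). The least close was miR-877-5p at 0.06, from 1057 to 836 (-0.35), beside a variation of miR-497a-5p of 0.21.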

How the data were processed

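Per the labels' protocols, RNA was extracted with Trizol and made into libraries with a TruSeq small RNA kit. The table the authors deposited holds a normalized signal, taken to be a read count per miRNA divided by a size factor per library. DESeq2 and mm9 are named in the submitters' processing notes without a role. Not given in the sources used here are the aligner, the miRNA annotation and how reads shared by several miRNAs were counted. Values were whole multiples of a step (100% within 0.01), but the smallest was 4 or 5 steps, so no count test was run and a listed 0 may hide lower values.

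A miRNA was tested if 3 or more libraries had a value of 10 or more (699 of 756). limma 3.58.1 (R 4.3.3) was fitted to log2(value + 1), with variances moderated toward a trend on level. Tests were two-sided, p-values were adjusted after Benjamini and Hochberg, and the threshold was 0.05. The scale understates changes of low miRNAs. The code was tested on simulated data. The members and lists were chosen with earlier results of these data known. The miRNAs named are all members, the listed neighbours in the table and the nearest patterns. Markers named are those past the threshold or most abundant for their cell type, and others of the same lists that did not pass. Same-numbered libraries deviated together with r of -0.07, 0.09 and 0.04, so the numbers were not taken as pairs. No library was a copy of another of its group (chi-square of estimated reads, per degree of freedom, 21.6 or more). Loci were read from GENCODE M21 (GRCm38) and sequences from RefSeq. Tables and plots were made in Python 3.11.15 (pandas 2.3.3, numpy 2.4.6, matplotlib 3.10.9). Alternatives were other pseudocounts, filters, scalings, no trend, a replicate block and each library left out.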

Additional observations from a re-analysis of the deposited data

How the results depend on the processing

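The count of miRNAs past the threshold was 46, and it was 22 with quantile normalization, 0 in limma without a trend (112 at an unadjusted p under 0.05) and 106 under the replicate block. With one library left out it ran from 17 (without saline 2) to 58, and was 21 without saline 3 and 21 without withdrawal 2. The 4 members past the threshold were 1 with quantile normalization (miR-322-5p), 0 without a trend, 4 with the replicate block, and between 1 and 4 when single libraries were left out, the lowest being without saline 2. The count for the listed neighbours was 0, and 1 (miR-16-1-3p) with equal library totals and with the replicate block. The cause of these moves was not tested. Fits that left out a library also rested on fewer libraries. With equal totals the median of all miRNAs moved to 0.04, and 75.4% of calls were higher, against 45.7%. The family sum lay between -0.16 and -0.11 with equal totals, TMM-type rescaling, without miR-16-5p and with each library left out, and was -0.049 with quantile normalization, which was added for the sum after seeing the data. No member changed sign in any of 15 alternatives, with 87 values within the spread of replicates and 3 beyond it (miR-16-5p and miR-15a-5p with quantile normalization, miR-15a-5p with equal totals). The alternative in edgeR was left out because a step of the deposited values could not be shown to be 1 read. Depth limits the 3p arms, down to 12 estimated reads for miR-497a-3p.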
